A study of Homo sapiens with 4 samples.

Results

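The 10 genes described here encode chaperones of 3 kinds: cytosolic HSP90 with a pair of its cochaperones (HSP90AA1, HSP90AB1, AHSA1, STIP1), small heat shock proteins (HSPB1, CRYAB) and mitochondrial chaperones (HSPD1, HSPE1, HSPA9, TRAP1). They were chosen by name, and every probe whose RefSeq accession belonged to one of them was taken, which gave 19 of the 41000 probes on the array and 10 of the 18203 genes with a named probe. Signal was measured on 4 one-colour arrays. The cells were Nalm-6, an established line from a human pre-B leukemia. The WT array held RNA of wild-type cells treated with heme, an inducer of oxidative stress, at 20 uM for 12 h. Arp5 KO was a line in which both alleles of the gene for actin-related protein 5 (ACTR5) had been disrupted. Arp8 KO was a knockout line for actin-related protein 8 (ACTR8), and Arp8 OE was labelled as overexpressing it. Arp5 and Arp8 are subunits of INO80, a complex that remodels chromatin with the energy of ATP. The sample titles and the protocol give heme for all 4 cultures, whereas the treatment entry of both knockouts gives none, and the source entry gives none for Arp5 KO alone. Genotype and treatment can therefore not be told apart in the knockouts.

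Each culture had 1 array, so no difference below was checked against a second culture and no test between cultures could be made. Between repeated spots of the same array the spread gave a technical SD of 0.083 for a log2 difference, which covers spots only. ACTR5 lay 19.3-fold below WT on the Arp5 KO array (log2 difference -4.27). The 2 ACTR8 probes were only 1.44-fold and 1.6-fold lower in Arp8 KO (log2 differences -0.53 and -0.68), and both stayed well above background there. On the array labelled Arp8 OE the same probes differed from WT by 0.02 and -0.01, so that label is used only as a name. HMOX1, the heme oxygenase gene the study was about, was below WT by log2 differences of -2.91 in Arp8 KO, -2.98 in Arp5 KO and -2.05 on the array labelled Arp8 OE. All 12 B-precursor markers looked up were well above background on every array, and their summed level ranged from 319.4 (Arp8 KO) to 403.4 (Arp8 OE). Single markers moved more than this sum: between WT and Arp8 KO the log2 level of CD22 went from 0.06 to -2.52, that of VPREB1 from 5.25 to 3.99 and that of DNTT from 2.35 to 4.12, and no other probe of the 17 passed 2-fold there. Of 8 markers of other cell types with a probe, CD14 was well above background on every array, CD3E and LYZ only in Arp8 KO, and the summed level was 0.3 to 0.4 on each array. The part of these markers in the differences below was not tested. In bulk RNA, fewer cells with a transcript and less transcript per cell cannot be told apart.

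HSP90 is an ATP-driven chaperone that brings kinases, steroid receptors and other clients to their active form, and cochaperones load the clients or pace the ATP cycle. Small heat shock proteins hold unfolding proteins without using ATP, and HSP60 with its lid HSP10 folds proteins imported into mitochondria. Under proteotoxic stress heat shock factor 1 (HSF1) raises many of these genes by binding heat shock elements, inverted repeats of a short unit, in their promoters.

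The promoter stretches of the 4 members with such repeats before a start site are shown here. They are RefSeq promoter sequences of GRCh38.p14, read 5′ to 3′ on the gene's strand, with heat shock units (GAANNTTC or TTCNNGAA) in capitals.
HSP90AA1: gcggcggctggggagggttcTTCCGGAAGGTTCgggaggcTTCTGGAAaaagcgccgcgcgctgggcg
HSP90AB1: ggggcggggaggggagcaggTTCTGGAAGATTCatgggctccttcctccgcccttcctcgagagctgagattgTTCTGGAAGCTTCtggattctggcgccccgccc
HSPB1: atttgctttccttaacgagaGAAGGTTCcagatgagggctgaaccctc
HSPD1: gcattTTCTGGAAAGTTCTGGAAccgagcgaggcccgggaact
The HSP90AA1 stretch lies at chr14:102087085-102087152 (minus strand), ahead of the second listed start site, and its longer run spans positions -88 to -76 from that site. The HSP90AB1 stretch lies at chr6:44247758-44247863 (plus strand), ahead of the third listed start site, with runs at -165 to -153 and at -112 to -100. The HSPB1 stretch lies at chr7:76302471-76302518 (plus strand) and its unit spans -182 to -175. The HSPD1 stretch lies at chr2:197500048-197500090 (minus strand), ahead of the second listed start site, and its run spans -245 to -228. These 3 stretches lie within their gene's own span, since an earlier start site is listed for each.

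Promoter windows of 300 bases, from 250 before to 50 after a start site, were listed for 9 members, in 15 windows. On both strands, 6 windows of 6 members held at least 1 heat shock unit: the 4 shown, and HSPA9 and STIP1, whose units lie across or after the start. Among all 35116 windows listed, 13.5% held one (GAANNTTC in 6.77% and TTCNNGAA in 7.74%). A run of 3 alternating units, in which these motifs overlap, was found in 3 members, HSP90AA1, HSP90AB1 and HSPD1, and in 0.49% of all windows. The antioxidant response motif TGACNNNGC was found in 4 of the 15 windows, those of HSP90AB1, HSPB1, AHSA1 and TRAP1, against 13.3% of all windows. Both HSPB1 matches lie after the start site, at 26 to 34 and at 42 to 50. A match describes these letters only. The window listed for HSPE1 (chr2:197500129-197500428) held none of the motifs searched, but the HSPD1 stretch shown ends close outside it, at 197500090.

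Probes were tested where either array of a comparison read them well above background, which held for 18 of the 19 member probes. Of these none was over 2-fold lower in Arp5 KO, where 2.01% of all tested probes were lower and 1.69% higher by that measure. In Arp8 KO 6 of 18 (33.3%) were over 2-fold lower, belonging to 3 genes, against 4.35% of all tested probes lower and 3.37% higher. In Arp8 OE none was, against 2.15% lower and 2.96% higher, and in Arp8 KO minus Arp5 KO none was, against 3.18% lower and 2.53% higher. No member probe was over 2-fold higher in any of these comparisons. Probes of 1 gene are not independent, and all comparisons with WT share its array.

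HSPB1, which encodes the small heat shock protein HSP27, was the member farthest from WT, in Arp8 KO, and its probes gave nearly the same values. Levels are given as multiples of the array's 75th percentile, and values without a name run in the order of the sentence before them. Probe A_23_P257704 read 94.2 in WT, 36.8 in Arp8 KO, 75.3 in Arp8 OE and 69.5 in Arp5 KO. Probe A_24_P86537 read 68.8, 28.0, 56.0 and 53.8 on the same arrays. Probe A_32_P76247 read 95.0, 38.2, 79.3 and 71.7. All 3 probes thus placed WT highest, Arp8 OE and Arp5 KO in between and Arp8 KO well below the others. In Arp8 KO the signal was 2.46-fold to 2.56-fold lower than in WT, with log2 differences of -1.36, -1.30 and -1.31. The Arp5 KO signal was 1.28-fold to 1.36-fold lower, and that of Arp8 OE 1.20-fold to 1.25-fold lower.

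The HSPB1 gap between Arp8 KO and the other arrays did not rest on the WT array. All these comparisons share the same Arp8 KO array, however, and its 3 HSPB1 probes read the same RNA, so they do not check that culture. Against Arp5 KO the log2 differences were -0.92, -0.94 and -0.91, and against Arp8 OE they were -1.03, -1.001 and -1.05. The SD between the 3 probes was 0.03 for Arp8 KO minus WT, where the median over 1005 genes with at least 3 probes well above background was 0.21. In 97.0% of those genes the probes differed more among themselves. Of all tested probes, 2.40% to 2.58% had a lower value than these probes in Arp8 KO minus WT. Median scaling, cyclic loess, quantile normalization and normexp left every HSPB1 probe over 2-fold below WT in Arp8 KO.

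**Figure D1:**
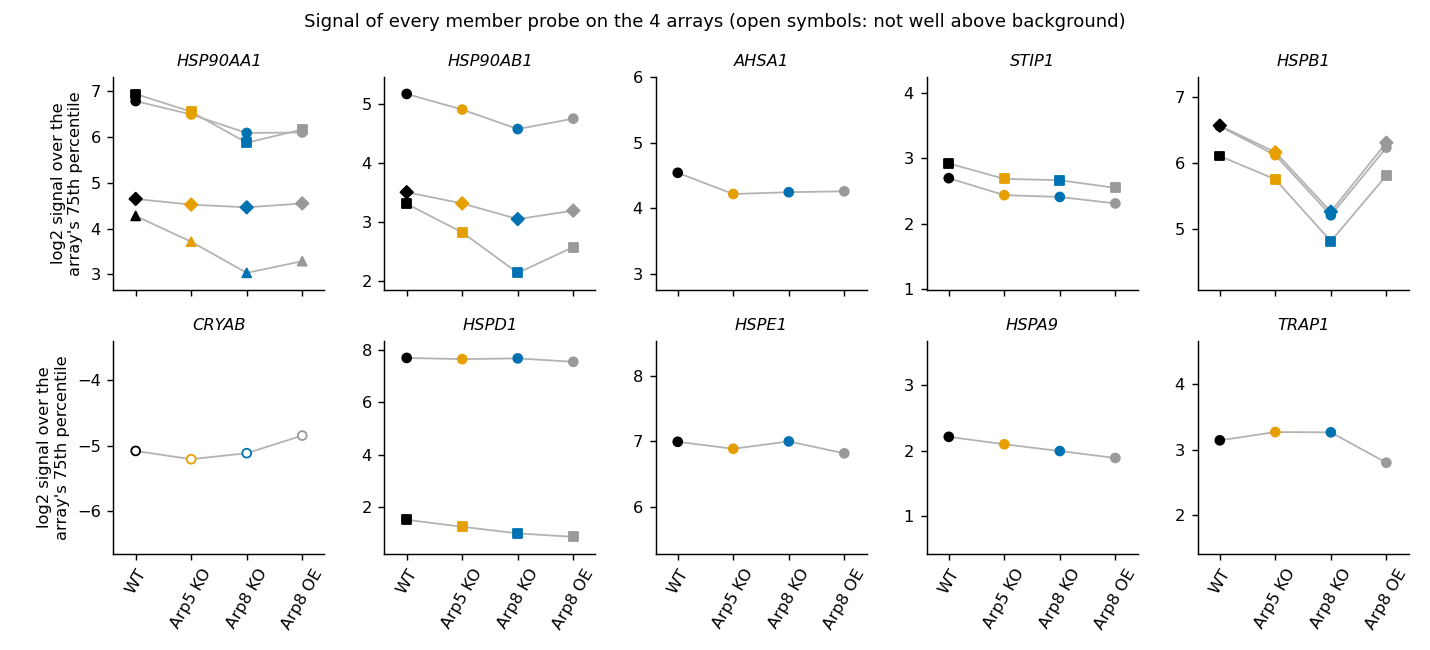
Log2 signal over the array's 75th percentile (vertical axis) for each of the 4 arrays, 1 panel per gene and 1 line per probe, with different symbols for different probes and each panel on its own range. The HSPB1 lines dip together in Arp8 KO, the HSP90AA1 and HSP90AB1 lines spread apart, and the CRYAB probe (open symbols) stayed near background throughout.

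CRYAB, alpha B-crystallin, is the other small heat shock protein, best known from lens and muscle. Its 1 probe gave processed signals of 21.74 in WT, 18.93 in Arp8 KO, 22.52 in Arp8 OE and 20.04 in Arp5 KO, none of them well above background. No difference is given for it, and 18 member probes remained. Among the other small heat shock genes looked up, 8 of 9 had a probe and HSPB9 alone was above background, with log2 differences between -0.25 and 0.42 on its 2 probes. Of the small heat shock genes looked up, HSPB1 alone had a difference past 2-fold.

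The cytosolic HSP90 genes were highest in WT and lowest in Arp8 KO on all 7 of their probes, although the gap to the next lowest array was within the technical SD on A_23_P162866 (0.01, to Arp8 OE) and A_24_P145377 (0.06, to Arp5 KO). HSP90AA1 encodes the stress-inducible form, HSP90 alpha. Probe A_23_P162874, printed at 10 positions, read 122 in WT, 58.4 in Arp8 KO, 71.3 in Arp8 OE and 93.2 in Arp5 KO (9 usable spots). The SD between its spots was 0.04 to 0.06 (log2) on each array, and 4 of its 58 neighbouring spots were bright on 1 array only. Probe A_32_P199252 read 19.3, 8.20, 9.78 and 13.1 on the same arrays. Both probes therefore ordered the arrays as WT, Arp5 KO, Arp8 OE and Arp8 KO, from high to low. Their log2 differences from WT were -1.06 and -1.24 in Arp8 KO, -0.77 and -0.98 for Arp8 OE, and -0.39 and -0.56 for Arp5 KO.

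The other HSP90AA1 probes gave smaller values. Probe A_23_P162866 read 109 in WT, 67.6 in Arp8 KO, 68.2 in Arp8 OE and 89.4 in Arp5 KO, with log2 differences from WT of -0.69, -0.68 and -0.29. Probe A_24_P145377 read 25.0, 22.0, 23.4 and 22.9, with differences of -0.18, -0.10 and -0.12. The latter carried the same accession (NM_001017963) as A_32_P199252, so the annotated transcript does not separate the probes. The SD between the 4 probes was 0.47 in Arp8 KO, and 10.5% of the 1005 multi-probe genes had a larger one. HSP90 genes have many processed copies in the genome, the probe sequences were not used here, and whether a probe reads such a copy was not tested.

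HSP90AB1 encodes the constitutive form, HSP90 beta, and showed the same kind of spread. Probe A_24_P170295 read 9.90 in WT, 4.41 in Arp8 KO, 5.96 in Arp8 OE and 7.08 in Arp5 KO, the last 3 lying below WT by log2 differences of -1.17, -0.73 and -0.48. Probe A_23_P145089 read 35.9, 23.8, 26.9 and 29.9. Probe A_24_P823684 read 11.3, 8.28, 9.14 and 9.95. All 3 ordered the arrays as WT, Arp5 KO, Arp8 OE and Arp8 KO, but the latter probes differed from WT in Arp8 KO by only -0.59 and -0.45. As a mean over its probes, HSP90AB1 differed from WT in Arp8 KO by -0.74 (SD 0.38 between 3 probes) and HSP90AA1 by -0.79 (4 probes), so neither passed 2-fold as a gene. HSPB1 did, at -1.32.

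AHSA1, the activator of the HSP90 ATPase, read 23.3 in WT, 19.0 in Arp8 KO, 19.2 in Arp8 OE and 18.6 in Arp5 KO. The 3 lower arrays lay 1.22-fold to 1.25-fold under WT and within 1.03-fold of each other. STIP1, also called HOP, passes clients from HSP70 to HSP90. Its probe A_24_P327815 read 6.47, 5.31, 4.96 and 5.41, and probe A_32_P92783 read 7.57, 6.34, 5.84 and 6.42. The STIP1 probes differed from WT by -0.29 and -0.26 in Arp8 KO, -0.39 and -0.37 for Arp8 OE, and -0.26 and -0.24 for Arp5 KO. For both cochaperones Arp8 KO and Arp5 KO differed by at most 0.03, less than the technical SD, whereas HSPB1 and most HSP90 probes separated these arrays.

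**Figure D2:**
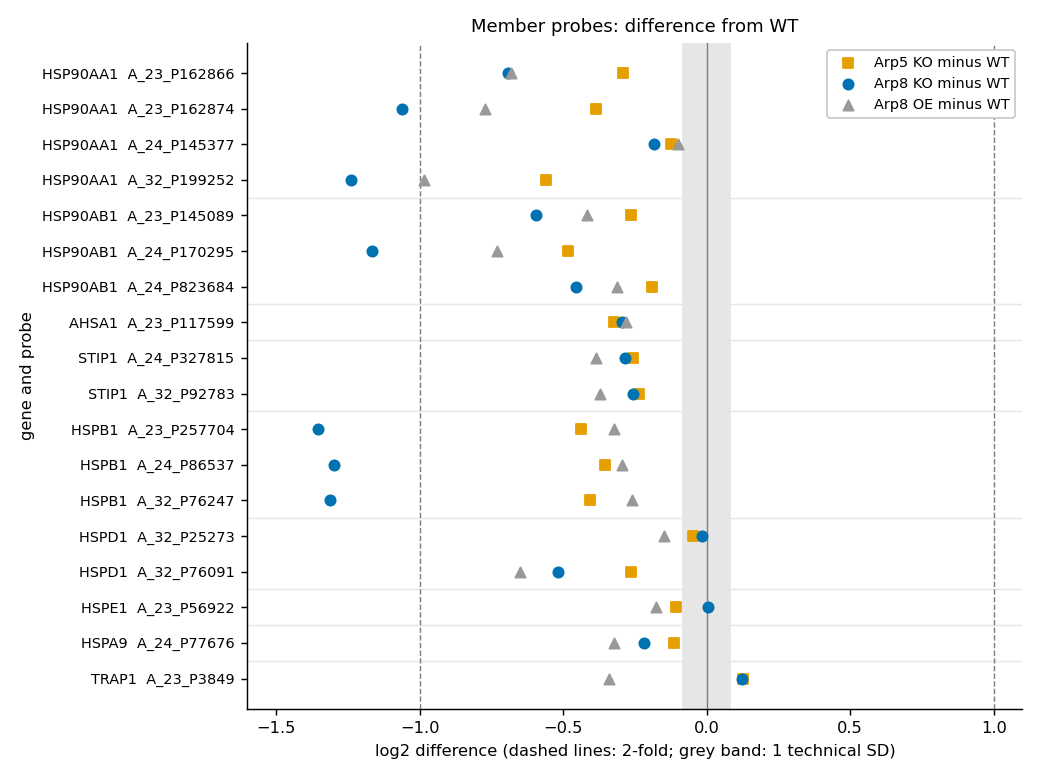
Log2 difference from WT (horizontal axis) of the 18 tested member probes (vertical axis) on the 3 other arrays, with dashed lines at 2-fold and a grey band of 1 technical SD (0.083). In Arp8 KO 6 probes lie left of the lower line, of HSP90AA1, HSP90AB1 and HSPB1, and none lies right of the upper line.

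Among the mitochondrial chaperones no probe passed 2-fold and the array labelled Arp8 OE was lowest on all 5 probes. HSPD1 encodes HSP60. Probe A_32_P25273 read 208 in WT, 205 in Arp8 KO, 187 in Arp8 OE and 201 in Arp5 KO, and no spot was saturated. Its other probe, A_32_P76091, read 2.88, 2.01, 1.84 and 2.40. The former differed from WT by -0.02 in Arp8 KO and -0.05 in Arp5 KO, under the technical SD, and by -0.15 in Arp8 OE. The latter differed by -0.52, -0.27 and -0.65 on these arrays, so the probes of this gene did not give 1 answer. HSPE1, encoding HSP10, is the neighbour of HSPD1 on the opposite strand. It read 127 in WT, 128 in Arp8 KO, 113 in Arp8 OE and 118 in Arp5 KO, with log2 differences of 0.01, -0.18 and -0.11, near those of HSPD1 A_32_P25273.

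HSPA9 encodes mortalin, the HSP70 of the mitochondrial matrix, and read 4.63 in WT, 3.99 in Arp8 KO, 3.71 in Arp8 OE and 4.28 in Arp5 KO. Its log2 differences from WT were -0.22, -0.32 and -0.11. TRAP1, the mitochondrial HSP90, read 8.85 in WT, 9.62 in Arp8 KO, 6.98 in Arp8 OE and 9.65 in Arp5 KO. It was the 1 member higher than WT in both knockouts by more than the technical SD, by 0.12 in Arp8 KO and 0.13 in Arp5 KO, and it lay below WT in Arp8 OE at -0.34. With normexp background correction the TRAP1 values were 0.02 in Arp8 KO and 0.08 in Arp5 KO, both under the technical SD.

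The median over the member probes was -0.49 in Arp8 KO, -0.33 in Arp8 OE and -0.26 in Arp5 KO (log2 difference from WT), where the median over all tested probes was 0.03, 0.0002 and 0.0042. Over gene means (9 genes) the members' medians were -0.27, -0.34 and -0.25, so that Arp8 OE was then the lowest array. Below WT lay 16, 18 and 17 of the 18 probes, against 47.3%, 12082 of 24177 and 49.3% of all tested probes. WT was the highest array for 16 probes, the exceptions being HSPE1 and TRAP1. Taken against Arp8 OE in place of WT, the median by probe was -0.05 in Arp8 KO and 0.13 in Arp5 KO. By probe the Arp8 KO median thus stayed below 0 but shrank, and the Arp5 KO median changed sign. Over gene means the middle values were 0.11 (HSPA9) in Arp8 KO and 0.18 (HSP90AB1) in Arp5 KO, so both changed sign. Only HSPB1 kept probes over 2-fold lower in Arp8 KO under that reference, 3 of 18. Of these, A_24_P86537 lay just past the threshold, at -1.001. The share over all tested probes is not given for this reference, so the count describes HSPB1 alone.

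The comparison of Arp8 KO with Arp5 KO does not use the WT array. Its median over the members was -0.26 by probe and -0.10 by gene mean, against 0.02 for all tested probes, and 15 of 18 probes lay below 0, against 46.9%. By kind, the median was -0.92 for HSPB1, -0.30 for cytosolic HSP90 with its cochaperones and -0.004 for the mitochondrial chaperones. HSP90AA1 probes ranged from -0.68 to -0.06 and HSP90AB1 probes from -0.69 to -0.26.

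**Figure D3:**
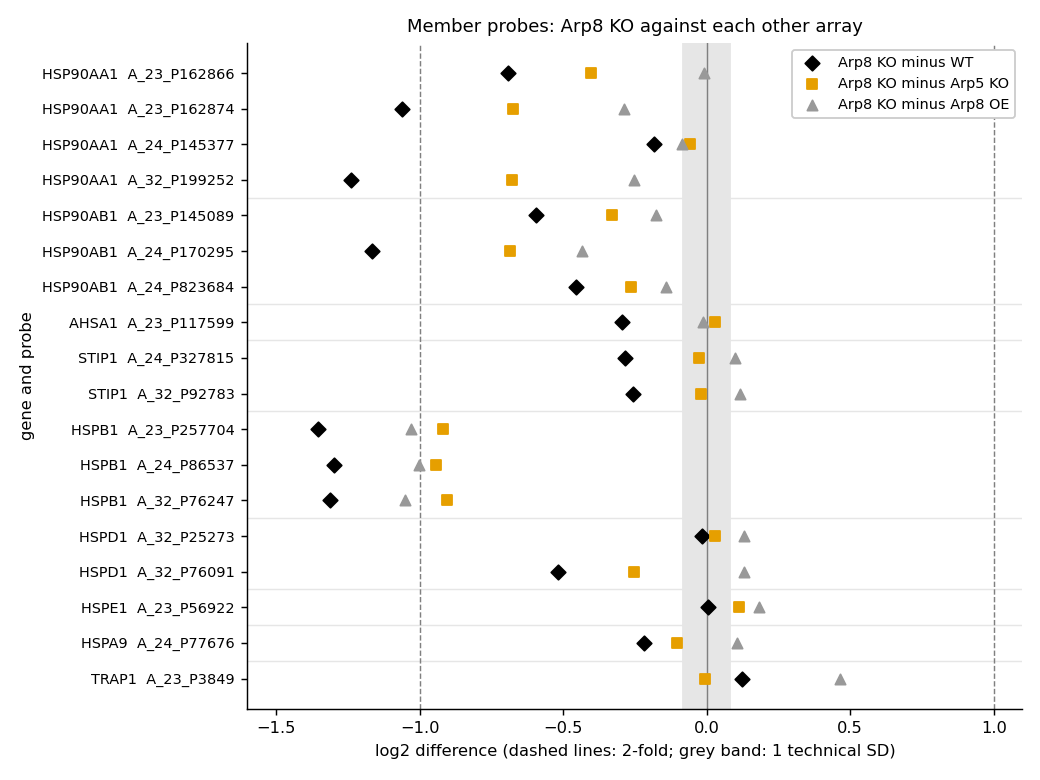
Log2 difference of Arp8 KO (horizontal axis) from WT, from Arp5 KO and from Arp8 OE for the 18 tested member probes (vertical axis), with dashed lines at 2-fold and a grey band of 1 technical SD. The HSPB1 symbols lie between -1.36 and -0.91 against every array, whereas HSP90AA1 and HSP90AB1 lie between -0.44 and -0.01 against Arp8 OE.

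Other genes of the pathway were read from lists. Among the heat shock factors and the HSF1 inhibitor HSBP1, 6 probes were tested and the median difference from WT was 0.15 in Arp8 KO, 0.07 in Arp8 OE and 0.10 in Arp5 KO. HSF1 itself differed by 0.14, 0.12 and 0.10. HSF4, a factor best known from the lens, was higher by 0.76, 1.06 and 0.70, past 2-fold in Arp8 OE. HSP90B1, the HSP90 of the endoplasmic reticulum, again had probes that disagreed: A_24_P150361 differed by -1.37, -1.20 and -0.58, and A_23_P2601, which had 2 neighbouring spots bright on WT alone, by -0.50, -0.60 and -0.26.

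None of the 26 probes of 16 other HSP90 cochaperones passed 2-fold, with medians of -0.08 in Arp8 KO, -0.18 in Arp8 OE and -0.07 in Arp5 KO. The partners of the mitochondrial chaperones (8 tested probes) and the mitochondrial proteases (13) likewise had none past 2-fold. In Arp8 OE all 8 partner probes lay below WT, with a median of -0.26, beside -0.32 for the mitochondrial members, whereas in Arp8 KO the medians were -0.02 for both lists.

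The HSP70 machinery, which hands clients to HSP90, had 6 of 27 tested probes over 2-fold lower in Arp8 KO, 1 of 26 in Arp8 OE and 5 of 26 in Arp5 KO, against 4.35%, 2.15% and 2.01% of all tested probes. In each knockout 3 of these probes belonged to HSPA1A. HSPA1A, the stress-inducible HSP70, was lower on its 3 probes by -2.62, -1.17 and -1.29 in Arp8 KO, by -0.61, -0.82 and -0.84 in Arp8 OE, and by -2.66, -1.22 and -1.24 in Arp5 KO. Its near-identical copy HSPA1B had no probe by that name, so the copies cannot be told apart. HSPA6, a strictly inducible HSP70, differed by -0.71 in Arp8 KO, -0.20 in Arp8 OE and -1.18 in Arp5 KO. HSPA1L was 3.10-fold lower in Arp8 KO, and lay below WT by at least 3.19-fold in Arp8 OE and 3.79-fold in Arp5 KO. DNAJB4, a J-domain partner of HSP70, differed in Arp8 KO by -0.90 and -1.02, and in Arp5 KO by -0.86 and -0.93. In Arp8 OE its probes differed by -0.66 and -0.62. BAG3, a nucleotide exchange factor for HSP70, had probe A_23_P52552 well above background in WT alone. That probe lay below WT by at least 2.03-fold in Arp8 KO, 1.59-fold in Arp8 OE and 1.88-fold in Arp5 KO. These bounds are set by each array's lowest level well above background, so they do not order the arrays. The other BAG3 probe, A_23_P47077, was well above background in Arp8 KO and not in WT, with log2 levels of -5.05 and -5.02. Between the knockouts (Arp8 KO minus Arp5 KO) the HSPA1A probes differed by 0.05, 0.05 and -0.06, beside the HSPB1 values of -0.94 to -0.91.

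**Figure D4:**
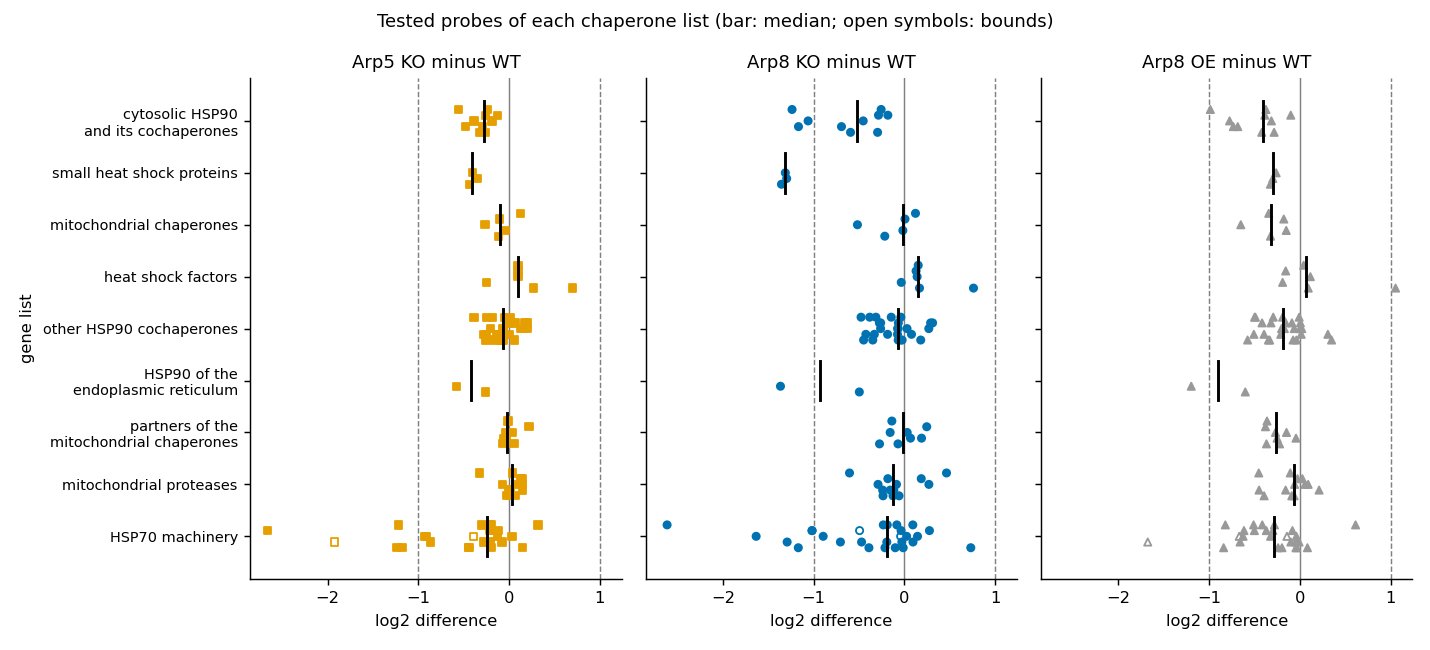
Log2 difference from WT (horizontal axis) of every tested probe in 9 gene lists (vertical axis), 1 panel per array, with a bar at the list's median, dashed lines at 2-fold and open symbols for bounds. The median of the small heat shock proteins is -1.31 in Arp8 KO, -0.30 in Arp8 OE and -0.41 in Arp5 KO, and all of its symbols are HSPB1 probes.

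The member probe with the largest mean difference from WT was A_32_P199252 of HSP90AA1. Over the 4 arrays and 16576 named probes well above background on all of them, the closest patterns by Euclidean distance belonged to CENPI (distance 0.08), RAD23B (0.10) and MAGT1 (0.10). CENPI differed from WT by -1.15 in Arp8 KO, -0.95 in Arp8 OE and -0.46 in Arp5 KO. The distance describes these 4 arrays only.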

How the data were processed

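Cy3-labelled cRNA of 4 Nalm-6 cultures (WT, Arp5 KO, Arp8 KO, Arp8 OE) was hybridised to 1 one-colour Agilent array each, and groups were taken from the genotype labels. Linear intensity per spot was deposited, read by the authors from their scans with Feature Extraction 10.10.1.1 (Agilent). The processed signal is background-subtracted within the array, and the flags for saturated, outlier and well-above-background spots come from the same software. The authors' deposited series matrix was checked to equal that intensity times 1 factor per array.

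The log2 processed signal was set relative to the array's 75th percentile (735.1, 739.6, 655.7 and 647.4 in the order above). Outlier spots were left out, spots of a probe were averaged, and probes were kept separate. A probe was tested if at least 50% of its spots were well above background on either array compared. On a dim array, a value under that array's lowest level well above background was raised to that level. A difference with a dim array was marked as a bound. Between 55.8% and 57.4% of probes were well above background. The technical SD came from 264 probes printed 10 times.

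Of 41000 probes, 27210 (66.4%) were named through their RefSeq accession in a GRCh38.p14 table. The file headers name hg19, so no probe coordinates are given. Promoter windows carry the table's own coordinates.

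No test could be made with single arrays. Differences and counts past 2-fold are descriptions. Named are all members, ACTR5, ACTR8 and HMOX1, every gene of the pathway lists past 2-fold against WT, and the 3 nearest patterns. HSF1, HSBP1, HSPB9 and the markers CD14, CD3E, LYZ, CD22, VPREB1 and DNTT fall outside that rule and were chosen after their values were seen. The members and lists were chosen with earlier results of these data known. Alternatives were median scaling, quantile normalization, cyclic loess, normexp (offset 50, on the median spot signal), the series matrix, stricter and absent filters, gene means, other thresholds, Arp8 OE as reference, and leaving out probes beside bright spots. The scripts were tested on simulated data and ran in Python 3.11.15 and R 4.3.3 with limma 3.58.1.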

Additional observations from a re-analysis of the deposited data

How the results depend on the processing

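No paired analysis was possible because each group had 1 array, and for the same reason no array could be left out. Of 830 recomputed values 720 moved by less than the technical SD, or for counts by less than 1.5 times, and 110 moved by more. The former include 92 values from the series matrix, which equal the reported ones by construction, and single-probe values under the filters, which a filter cannot change, so they say nothing on stability. Counts of member probes over 2-fold lower changed as follows. In Arp8 KO there were 6, but 1 of 9 genes by means over the probes of a gene, 3 against Arp8 OE and 0 at 4-fold. In Arp8 OE there were 0, but 1 under median scaling, where 561 of all tested probes were lower, and 5 at 1.5-fold. In Arp8 KO minus Arp5 KO there were 0, but 6 at 1.5-fold. The 1.5-fold and 4-fold counts over all tested probes, with their totals, stand in the last paragraph. Against Arp8 OE no count of all probes lower in Arp8 KO is given. By gene means the members' median was -0.27 in Arp8 KO and -0.10 in Arp8 KO minus Arp5 KO. By probe, the median against Arp8 OE in place of WT was -0.049 in Arp8 KO and 0.13 in Arp5 KO. The middle gene means under that reference were 0.11 (HSPA9) in Arp8 KO and 0.18 (HSP90AB1) in Arp5 KO.

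Quantile normalization moved 7 member values, among them HSPD1 A_32_P25273, to -0.17 (Arp8 KO) and -0.31 (Arp8 OE), and HSPE1 to -0.32 in Arp8 OE. Normexp moved AHSA1 to -0.39, STIP1 A_32_P92783 to -0.34 and TRAP1 to 0.02, all in Arp8 KO. The cause was not tested.

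With the main filter 24578 probes were tested in Arp8 KO, 24177 in Arp8 OE and 24285 in Arp5 KO. In Arp8 KO minus Arp5 KO 24440 were tested. The 4-fold and 1.5-fold counts are out of these totals. Counts over all tested probes, as lower and higher than the reference, follow. With normexp they were 439 and 255 for Arp8 KO, 184 and 258 for Arp8 OE, 165 and 133 for Arp5 KO, and 250 and 155 in Arp8 KO minus Arp5 KO. With probes required above background on each array compared they were 203 and 155 in Arp5 KO, 233 and 386 in Arp8 OE, and 409 and 373 in Arp8 KO minus Arp5 KO, with 632 lower in Arp8 KO. With no filter and no floor they were 2810 and 1762 for Arp8 KO, and 1743 and 1572 for Arp8 OE. They were 1679 and 1077 for Arp5 KO, and 1952 and 1611 in Arp8 KO minus Arp5 KO. The counts by gene means, at 4-fold and at 1.5-fold keep this order. By gene means, over totals of genes not given here, they were 546 and 336, 252 and 289, 253 and 193, and 395 and 238. At 4-fold they were 268 and 123, 152 and 176, 162 and 126, and 180 and 111. At 1.5-fold they were 2757 and 2470, 1370 and 1917, 1139 and 1008, and 1916 and 1687. Against Arp8 OE, 792 were lower in Arp5 KO and 398 higher in Arp8 KO. Without probes beside a bright spot there were 232 and 158 in Arp5 KO, 273 and 415 in Arp8 OE, and 470 lower in Arp8 KO minus Arp5 KO. Of the member probes, 18 of 19 were well above background.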
